A study of Mus musculus with 6 samples.

Results

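NF-kB is a family of dimeric transcription factors, and this account follows its subunit genes Nfkb1, Nfkb2, Rel, Rela and Relb together with 5 genes of its inhibitors and feedback regulators, Nfkbia, Nfkbie, Nfkbiz, Tnfaip3 and Bcl3, in challenged mouse ear skin. The 10 genes were chosen by name, and each was read from the brightest array probe set listed with that gene alone. Of the 10, 9 were matched among the 19938 genes measured, each through 1 probe set, and Nfkb1 had no probe set listed under its symbol and is not analysed here. The measured members were therefore 4 of 5 subunits and all 5 inhibitors.

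Total RNA of ear pinna from 6 mice aged 10 to 12 weeks was hybridised to Affymetrix arrays, with 1 mouse and 1 ear per array. In 3 mice the genotype was CLEC4C-DTR/+, which carries a diphtheria toxin receptor driven from the human CLEC4C promoter, active in plasmacytoid dendritic cells, and the other 3 were littermate controls without the transgene. Toxin doses of 200 ng were given to all 6 mice on days -1, 1, 3 and 5. FITC (fluorescein isothiocyanate, a skin-sensitising dye) at 0.5% was painted on the abdomen on days 0 and 2 and on the right ear on day 6. Both groups share toxin and challenge, so the comparison is of CLEC4C-DTR with control ears after both, and the genotype, loss of cells at sensitisation and loss of cells in the ear cannot be told apart. The samples hold no solvent-treated ear and no mouse without toxin, and the sources used here do not give the time between the ear challenge and tissue harvest.

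Inactive NF-kB dimers are held in the cytoplasm by IkB proteins, of which IkB-alpha (Nfkbia) and IkB-epsilon (Nfkbie) are classical members. Signals from TNF, IL-1 and Toll-like receptors lead an IkB kinase complex to mark these proteins for destruction, and the freed dimers enter the nucleus. Several of the genes they switch on, Nfkbia and Tnfaip3 among them, encode proteins that end the signal, which is why transcripts of the inhibitors are commonly read as traces of recent pathway activity. Nuclear IkB proteins (Nfkbiz, Bcl3) act differently, joining NF-kB at promoters and altering which genes are induced. In skin the pathway serves keratinocytes as well as immune and stromal cells.

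Promoter sequence was available from RefSeq (GRCm38.p6) for 7 of the 10 members, and was searched in the 250 bases before each annotated start, on both strands, for the NF-kB (kappa B) consensus. Relb, Nfkbiz and Nfkb1 had no entry matched. A match was found for 5 members, Nfkb2, Rel, Nfkbia, Nfkbie and Tnfaip3, against 4.46% of 27025 genes in the same table, where a gene counts if any of its starts has one. Nfkb2 has 3 starts in the table and Tnfaip3 has 2. The windows of the inhibitors Nfkbia and Nfkbie are shown whole because these genes passed the test of expression, with the matched letters in capitals. Each runs 5′ to 3′ on the strand of its gene and ends at the base before the start. Nfkbia lies on the minus strand and its window is chr12:55492648-55492897, while that of Nfkbie is on the plus strand at chr17:45555450-45555699.
Nfkbia: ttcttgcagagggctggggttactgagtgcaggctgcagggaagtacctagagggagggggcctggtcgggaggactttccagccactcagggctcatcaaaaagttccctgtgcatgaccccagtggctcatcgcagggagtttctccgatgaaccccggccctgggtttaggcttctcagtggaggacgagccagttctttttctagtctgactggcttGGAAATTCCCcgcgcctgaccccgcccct
Nfkbie: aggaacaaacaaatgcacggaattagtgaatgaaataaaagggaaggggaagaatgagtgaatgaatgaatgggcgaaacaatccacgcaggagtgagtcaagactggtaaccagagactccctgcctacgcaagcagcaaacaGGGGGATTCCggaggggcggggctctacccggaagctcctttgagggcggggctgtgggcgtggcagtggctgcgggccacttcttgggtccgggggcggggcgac
In Nfkbia the match lay 29 to 20 bases before the start, and in Nfkbie 106 to 97 bases before it. For 3 further members the stretch around 1 match is shown to place it against the start; the letters resemble each other because the search required the consensus. Nfkb2 and Tnfaip3 hold further matches that are not shown.
Rel: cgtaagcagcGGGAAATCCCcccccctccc
Tnfaip3: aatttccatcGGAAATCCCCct
Nfkb2: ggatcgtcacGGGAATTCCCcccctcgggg
The Rel stretch is chr11:23771042-23771071 on the minus strand, with its match 92 to 83 bases before the start. The Tnfaip3 stretch is chr10:19015411-19015432 on the minus strand and its match ended 3 bases before the start. The Nfkb2 stretch is chr19:46304688-46304717 on the plus strand, with its match 39 to 30 bases before one of the starts. In Rel and Nfkb2 a second match on the opposite strand overlapped the one shown by all but 1 base. The AP-1 letters TGANTCA were found for Nfkb2, Nfkbie and Tnfaip3 and in 7.82% of all genes, and TATAAA for Tnfaip3 and in 14.3% of all genes. No kappa B consensus was found in these windows of Rela and Bcl3. A match describes letters in the window and is no evidence that the site was bound in these ears.

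Levels are on the log2 scale of RMA, a robust average over the probes of a probe set, and were comparable across arrays in their bulk, with array medians of 6.17 to 6.23. Limma was fitted over all 19938 genes, a gene was called at an adjusted p of 0.05, and 1858 genes passed, 998 of them higher and 860 lower in CLEC4C-DTR skin. Keratinocyte genes fitted the labelled tissue, with Krt14 at 12.0 to 12.2 and Krt5 at 11.9 to 12.3 on all arrays, and the ear cartilage gene Acan was at 7.44 to 8.69. Without a measure of background on these arrays, presence or absence is called for no gene. Levels of different genes are not compared, since they come from different probes.

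The classical inhibitors Nfkbia and Nfkbie rose in CLEC4C-DTR skin. Of the 9 measured members 2 were called, both higher, against 5.01% of all genes called higher and 9.32% called in either direction. None fell, against 4.31% of all genes, and neither riser reached a 2-fold difference, which 1.67% of all genes did with a call in the higher direction. All 9 had a higher mean in the CLEC4C-DTR group, a direction shared by 41.8% of all genes, and their differences had a median of 0.58 on the log2 scale, with a median over all genes of -0.04. The 5 inhibitors ranged from 0.58 to 0.95 and the 4 subunits from 0.17 to 0.37, so that every inhibitor differed by more than every subunit. In 7 members all 3 CLEC4C-DTR values lay above all 3 controls, as was the case for 14.0% of all genes, and in none were all 3 below, as in 19.0% of all genes. After a further quantile normalisation of the arrays that count was 4, since the groups then overlapped for Rela, Nfkbiz and Bcl3 too, and without control replicate 2 it was 9.

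**Figure D1:**
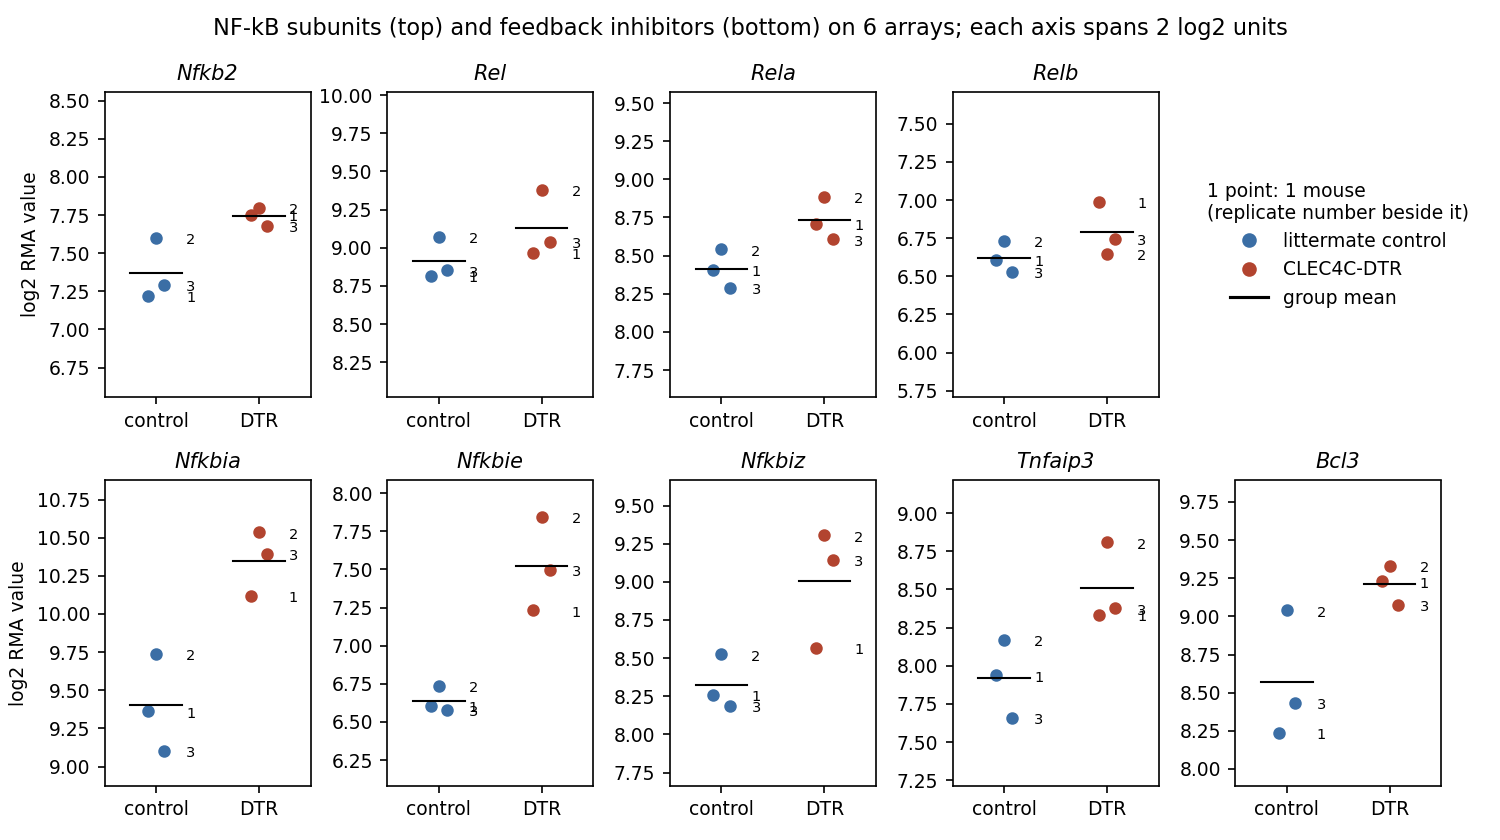
Log2 RMA value (vertical axis, spanning 2 log2 units in every panel) of each measured member on the 6 arrays, with 1 point per mouse, its replicate number and a bar at the group mean. The 3 CLEC4C-DTR values lie above the 3 control values for all 5 inhibitors and for Nfkb2 and Rela (for Nfkbia, Nfkbie, Tnfaip3 and Nfkb2 alone after a further quantile normalisation), and the groups overlap for Rel and Relb.

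Nfkbia encodes IkB-alpha, the inhibitor that is rapidly destroyed and rapidly remade when NF-kB is active. Its log2 values were 10.12, 10.53 and 10.39 in CLEC4C-DTR mice 1, 2 and 3, and 9.36, 9.74 and 9.10 in controls 1, 2 and 3. The lowest CLEC4C-DTR value was 0.38 above the highest control. The difference was 0.95 (SE 0.17, 95% interval 0.55 to 1.34), or 1.93-fold, with an adjusted p of 0.0202 by limma.

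Nfkbie encodes IkB-epsilon, a slower inhibitor that holds Rel- and Rela-containing dimers. CLEC4C-DTR values were 7.23, 7.85 and 7.50, and control values were 6.60, 6.74 and 6.58. The controls were close together (SD 0.09) and the groups were separated by 0.49, the widest gap among the 9 members. Its level differed by 0.88 (SE 0.15, 95% interval 0.54 to 1.23), or 1.85-fold, with an adjusted p of 0.0178 by limma.

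Both calls depended on single arrays. Nfkbia did not pass without CLEC4C-DTR replicate 2 (adjusted p = 0.0629), CLEC4C-DTR replicate 3 (0.0733), control replicate 1 (0.0691) or control replicate 3 (0.0808), and its difference was 0.80 to 1.12 in the 6 fits with 1 array left out. Nfkbie did not pass without CLEC4C-DTR replicate 3 (adjusted p = 0.0632), control replicate 1 (0.0635) or control replicate 3 (0.0821), and its difference was 0.72 to 1.03.

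Nfkbiz encodes IkB-zeta, a nuclear coactivator that is made on demand and is known in keratinocytes as a mediator of IL-17 and IL-36 responses. It was measured at 8.57, 9.31 and 9.14 in CLEC4C-DTR mice and at 8.26, 8.53 and 8.19 in controls. CLEC4C-DTR replicate 1 lay just above the highest control, by 0.04, and well below replicates 2 and 3. The difference of 0.68 (SE 0.19, 95% interval 0.25 to 1.12) did not pass (limma adjusted p = 0.0604). It passed without CLEC4C-DTR replicate 1 (adjusted p = 0.00494, difference 0.90) and had an adjusted p of 0.0743 to 0.199 without any other array.

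Tnfaip3 encodes A20, a ubiquitin-editing enzyme that shuts down signalling from TNF and Toll-like receptors. Values of 8.33, 8.81 and 8.38 stood against 7.94, 8.17 and 7.66 in controls, with a gap of 0.17 between the groups. The difference of 0.58 (SE 0.17, 95% interval 0.20 to 0.97) did not pass (limma adjusted p = 0.0650), nor did it with any array left out (adjusted p = 0.0512 to 0.207).

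Bcl3 encodes a nuclear IkB protein that binds p50 and p52 dimers. Its values were 9.23, 9.33 and 9.08 in CLEC4C-DTR mice and 8.24, 9.04 and 8.43 in controls. Control replicate 2 reached within 0.04 of the lowest CLEC4C-DTR value, and the other controls lay well below. The difference of 0.64 (SE 0.19, 95% interval 0.20 to 1.09) did not pass (limma adjusted p = 0.0751). Without control replicate 2 it was 0.88 and passed (adjusted p = 0.0162). With any other array left out it did not pass (limma adjusted p up to 0.231).

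The subunits differed less, and no subunit was called. Limma gave 2 of the 4 an unadjusted p under 0.05, Nfkb2 and Rela, against 12.2% of all genes in the higher direction.

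Nfkb2 encodes p100, the precursor of p52 in the alternative pathway and itself an NF-kB target. It was measured at 7.75, 7.80 and 7.68 in CLEC4C-DTR mice and at 7.22, 7.60 and 7.29 in controls. Control replicate 2 again was the highest control, 0.08 under the lowest CLEC4C-DTR value. The difference was 0.37 (SE 0.11, 95% interval 0.11 to 0.63, limma adjusted p = 0.0759). It was 0.49 and passed without control replicate 2 (adjusted p = 0.0340), and did not pass without any other array (limma adjusted p up to 0.235).

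Rela encodes p65, the main transactivating subunit of the classical dimer, which is controlled largely at the protein level. Its values were 8.71, 8.88 and 8.61 in CLEC4C-DTR mice and 8.41, 8.54 and 8.29 in controls. The groups did not overlap, but were separated by only 0.07. The difference of 0.32 (SE 0.10, 95% interval 0.08 to 0.56) did not pass (limma adjusted p = 0.0951).

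Rel encodes c-Rel, a subunit prominent in lymphoid and myeloid cells. CLEC4C-DTR values of 8.97, 9.38 and 9.04 overlapped the control values of 8.82, 9.07 and 8.85, since control replicate 2 lay above CLEC4C-DTR replicates 1 and 3. The difference was 0.22 (95% interval -0.08 to 0.51, limma adjusted p = 0.324).

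Relb encodes the partner of p52 in the alternative pathway. It was measured at 6.99, 6.65 and 6.75 in CLEC4C-DTR mice and at 6.61, 6.73 and 6.53 in controls. CLEC4C-DTR replicate 1 was highest, unlike in any other member, and replicate 2 lay among the controls. The difference was 0.17 (95% interval -0.08 to 0.42, limma adjusted p = 0.359), so neither no change nor a rise of up to 0.42 is outside its interval.

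**Figure D2:**
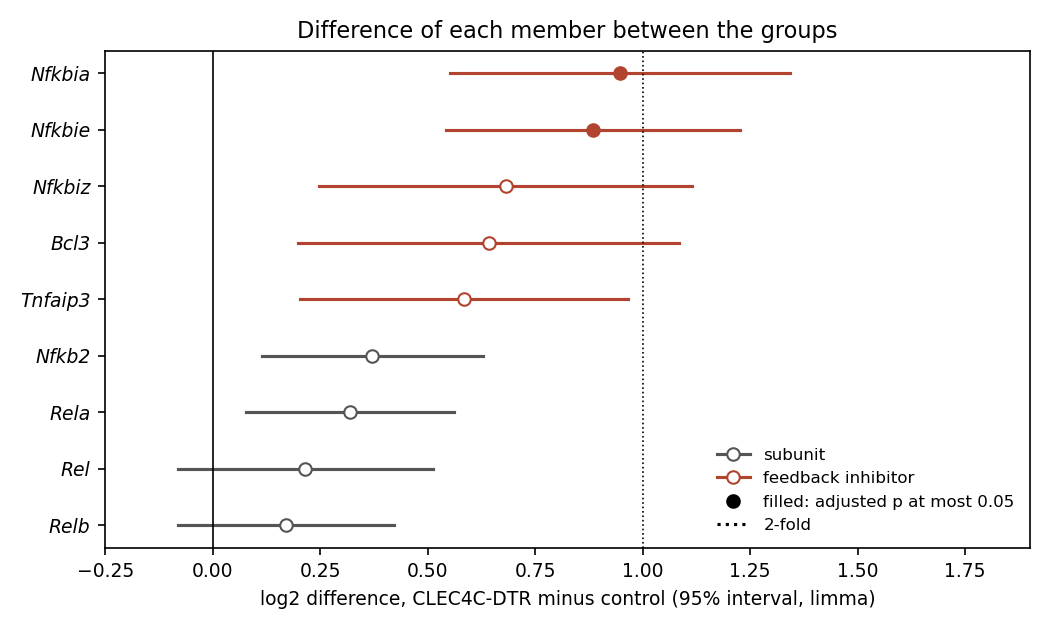
Log2 difference between the groups (CLEC4C-DTR minus control, horizontal axis) for each measured member, with the 95% interval of the limma fit; filled points passed an adjusted p of 0.05 and the dotted line marks 2-fold. Nfkbia (0.95) and Nfkbie (0.88) are the filled points, and the intervals of Rel and Relb include 0.

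Inhibitor and subunit were also set against each other on the same array, which removes any shift common to both. The value of Nfkbia minus that of Rela was 1.41, 1.65 and 1.79 in CLEC4C-DTR mice and 0.95, 1.20 and 0.82 in controls. All 3 CLEC4C-DTR values were higher, and the means differed by 0.63, or by 0.60 after a further quantile normalisation. For Nfkbie minus Rel the values were -1.73, -1.54 and -1.54 against -2.21, -2.33 and -2.27, a difference of 0.67. The pairs were chosen after the values had been seen, so the separation of the groups is given as a description without a test.

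The highest animal of each group was mostly the same across members, and the lowest was not. Control replicate 2 had the highest control value for all 9 members, a position it held in 33.7% of all genes. CLEC4C-DTR replicate 2 had the highest value of its group for 8 of 9 members, against 31.3% of all genes, and Relb was the exception. CLEC4C-DTR replicate 1 was lowest of its group for 5 members (Rel, Nfkbia, Nfkbie, Nfkbiz and Tnfaip3), replicate 3 for 3 (Nfkb2, Rela and Bcl3) and replicate 2 for Relb. Among controls replicate 3 was lowest for 6 members and replicate 1 for 3. The share of all genes in which each replicate was lowest was not counted, so these counts have no baseline. The mean of the 5 inhibitors was 8.70, 9.16 and 8.90 in CLEC4C-DTR mice 1, 2 and 3 and 8.08, 8.44 and 7.99 in the controls. The mean of the 4 subunits was 8.10, 8.18 and 8.02 against 7.76, 7.99 and 7.74. The groups did not overlap in either mean.

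Other inhibitors of the pathway differed less as a group. Limma called 2 of the 17 measured genes, both higher, with a median difference of 0.18. The counts of called genes in this and the following lists stand beside 9.32% of all genes called and 5.01% called higher, and the counts at an unadjusted p under 0.05 beside 27.3% of all genes. Zc3h12a, which encodes the RNase regnase-1, rose by 0.87 (SE 0.20, adjusted p = 0.0351), and its highest control value of 7.41 lay below its lowest CLEC4C-DTR value of 7.64. Nfkbib, the gene of IkB-beta, rose by 0.44 (SE 0.11, adjusted p = 0.0485), with the 3 classical IkB genes Nfkbia, Nfkbib and Nfkbie thereby all called. Of the 6 fits with 1 array left out, however, Nfkbib was called in 1, Nfkbia in 2 and Nfkbie in 3. Nfkbid, a nuclear IkB gene, had the largest difference of the list at 1.19, but CLEC4C-DTR replicate 1 was at 5.99, close to the highest control at 5.90, while replicates 2 and 3 were at 7.45 and 7.54 (adjusted p = 0.0798). Irak3, an inhibitory kinase of Toll-like receptor signalling, differed by 0.56 (adjusted p = 0.0526), Pdlim2 by 0.28 (adjusted p = 0.0807) and Tnip1, an A20-binding protein, by 0.45 (adjusted p = 0.0889). The number called was 0 without CLEC4C-DTR replicate 2 or 3 or control replicate 1 or 3, and 3 without CLEC4C-DTR replicate 1, while 7 of the 17 had an unadjusted p under 0.05 on all arrays.

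The core kinases and adaptors moved in both directions. Of 28 measured, 4 rose, 1 fell and 23 did not pass, and their median difference was 0.03. Ikbkb, the catalytic kinase of the classical pathway, differed by 0.15 (95% interval -0.07 to 0.36) and the scaffold Ikbkg by -0.06 (95% interval -0.26 to 0.15). Map3k14, the kinase of the alternative pathway, differed by 0.02 (95% interval -0.18 to 0.22). The risers were the adaptor Myd88 by 0.79 (SE 0.18), the ubiquitin ligase Birc3 by 0.64 (SE 0.14), Traf1 by 0.63 (SE 0.13) and Card9, an adaptor of C-type lectin receptors, by 0.37 (SE 0.08). Birc3 and Traf1 are themselves known NF-kB targets. Irak2, a kinase of IL-1 receptor signalling, differed by 0.81 and did not pass (adjusted p = 0.0524). Traf5 fell by 0.59 (SE 0.14, adjusted p = 0.0394), from 6.48, 6.64 and 6.93 to 6.29, 5.94 and 6.05. The number called was 7 without CLEC4C-DTR replicate 1, 3 without control replicate 2 and 0 without any of the other 4 arrays, with 10 of the 28 at an unadjusted p under 0.05 on all arrays.

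Ligands that feed the pathway showed larger rises in a few genes. Limma called 4 of the 14 measured ligand genes, all higher, with a median difference of 0.49. Over the 6 ligand genes above the median level of all genes that median was 1.34. Levels for this filter were means over all 6 arrays, which favours genes that are high in CLEC4C-DTR skin. The larger median is therefore no support for a stronger rise. Il1a rose by 3.08 (SE 0.50, adjusted p = 0.0169), from 5.53, 6.73 and 6.54 to 8.26, 10.27 and 9.52. Il1b rose by 2.43 (SE 0.43), the epithelial alarmin gene Il33 by 1.36 (SE 0.35) and Tnf by 1.33 (SE 0.28). Tnf was at 7.02, 7.02 and 6.82 in controls and at 7.59, 8.86 and 8.39 in CLEC4C-DTR mice, with replicate 1 the lowest of its group in all 4 of these genes. Lta differed by 0.06 (adjusted p = 0.819) and Ltb, a ligand of the alternative pathway, by 0.52 (adjusted p = 0.0735). With CLEC4C-DTR replicate 1 left out 8 were called, with control replicate 2 left out 2, with CLEC4C-DTR replicate 2 left out 1, and 0 with any of the other 3 arrays left out, and 10 of the 14 had an unadjusted p under 0.05 on all arrays.

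Of the receptor genes 9 of 21 measured were called higher and none lower, with a median difference of 0.46. Cd14, the co-receptor for lipopolysaccharide, rose by 3.09 (SE 0.50) and its partner Tlr4 by 1.25 (SE 0.24). Tlr6 and Tlr1, which pair with Tlr2, rose by 1.75 and 1.33. Tlr2 itself differed by 0.94 and did not pass (limma adjusted p = 0.0751). Its lowest CLEC4C-DTR value of 8.02 lay below its highest control value of 8.04. Both TNF receptors rose, Tnfrsf1b, found mainly on immune cells, by 1.31 (SE 0.20) and the widely expressed Tnfrsf1a by 0.46 (SE 0.08). The IL-1 receptor accessory chain Il1rap rose by 1.49, Il17ra by 0.74 and the bacterial sensor Nod2 by 0.51. The number was 4 without CLEC4C-DTR replicate 2 and 0 without CLEC4C-DTR replicate 3 or control replicates 1 or 3, and 12 of the 21 had an unadjusted p under 0.05 on all arrays.

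Known targets of NF-kB were higher in larger part. Among 30 textbook targets measured outside the members, 15 were called higher and none lower, with a median difference of 0.90, and 28 of the 30 had a higher mean. Ptgs2, the inducible cyclooxygenase, and Cxcl2, a neutrophil chemokine, rose by 3.42 (SE 0.62) and 3.29 (SE 0.46). Lcn2, an iron-binding antimicrobial protein, rose by 1.72 (SE 0.19), and was the one gene of the list called in each of the 6 fits with an array left out. The chemokine gene Ccl20 rose by 1.22, the matrix protease Mmp9 by 2.27, the costimulatory ligand Cd80 by 1.85 and the inducible nitric oxide synthase Nos2 by 1.77. Slfn2 rose by 1.12, the stress-response genes Gadd45b and Ier3 by 1.20 and 1.16, the survival gene Bcl2l1 by 0.65, the chemokine receptor Ccr7 by 0.69 and Marcksl1 by 0.49. Csf2 and Csf3, growth factors of myeloid cells, rose by 0.82 and 0.98. Cxcl1, Il6, Ccl5 and Irf1 differed by 1.43, 1.40, 1.12 and 1.02 without passing (limma adjusted p = 0.0581, 0.0751, 0.0528 and 0.0669). The endothelial adhesion genes did not pass either: Icam1 differed by 0.32 (95% interval -0.12 to 0.77) and Vcam1 by -0.08 (95% interval -0.38 to 0.22). The monocyte chemokine Ccl2 differed by -0.06 (95% interval -0.71 to 0.58). Leaving out CLEC4C-DTR replicate 2 gave 8 called targets, leaving out control replicate 1 gave 2, and leaving out CLEC4C-DTR replicate 3 or control replicate 3 gave 1.

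Genes known to depend on IkB-zeta (Nfkbiz) rose in larger part, though Nfkbiz itself did not pass. Of the 11 measured, 7 were called, all of them higher, with a median difference of 1.40. The neutrophil chemokine Cxcl5 rose by 3.86 (SE 0.37), from 5.45, 6.70 and 5.63 to 9.30, 10.44 and 9.62. S100a8 and S100a9, the calprotectin subunits, rose by 1.61 and 1.49, and Csf2, Csf3 and Zc3h12a were the others called. Cxcl5, Lcn2, S100a8 and S100a9 were called with every array left out in turn, and they were the 4 genes called without CLEC4C-DTR replicate 3 or control replicates 1 or 3. Of these 11 genes 6 also stand in the target list, and S100a8 and S100a9 are markers of neutrophils as well.

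**Figure D3:**
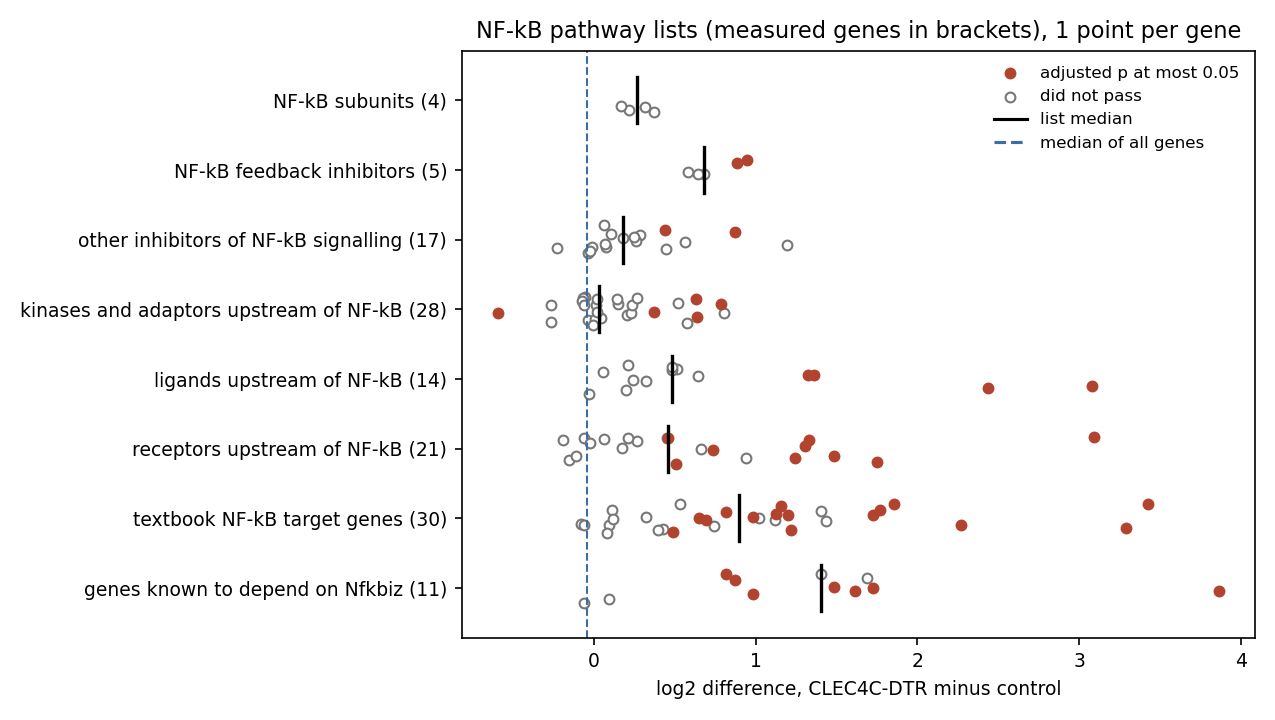
Log2 difference between the groups (CLEC4C-DTR minus control, horizontal axis) of every measured gene of the pathway lists, 1 point per gene (a gene can stand in more than 1 list), with the list median as a black bar and the median of all genes dashed. The median was 0.03 for kinases and adaptors, 0.18 for other inhibitors, 0.27 for subunits, 0.46 for receptors and 0.49 for ligands. It was 0.68 for the feedback inhibitors, 0.90 for targets and 1.40 for the Nfkbiz-dependent genes. The lists were chosen with earlier results of these data known, so their order is only a description.

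These are whole-skin samples, in which more cells of a type and more RNA per cell cannot be told apart. Marker lists of some immune cells differed beside the members and others did not pass. Limma called 6 of 10 neutrophil markers higher and none lower, and their mean log2 value was 8.01 to 8.97 in CLEC4C-DTR skin and 7.03 to 7.28 in controls (summed linear signal 18457 to 27736 against 6735 to 8013). In CLEC4C-DTR mice 1, 2 and 3 that mean was 8.01, 8.97 and 8.85, so that replicate 1 was lowest. It was also lowest for 5 of the 9 members, a count without its share of all genes, and not for Nfkb2, Rela, Relb and Bcl3. The summed signal of the neutrophil list rested mostly on S100a8 and S100a9, at 12.82 to 13.42 in CLEC4C-DTR skin and 11.21 to 11.94 in controls. Of 10 monocyte and macrophage markers 7 were called higher and none lower (mean 9.19 to 9.47 against 8.18 to 8.61, summed signal 8140 to 9169 against 5297 to 6503). In this list 9 had a higher mean. Lyz2 went the other way, at 11.26 to 11.30 against 11.38 to 11.57, and did not pass (limma adjusted p = 0.139). Of 6 T cell markers 1 was called higher and none lower (mean 7.08 to 7.41 against 6.55 to 6.81, summed signal 959.9 to 1196 against 649.8 to 765.2). All 6 had a higher mean, and 5 had an unadjusted p under 0.05 in limma. Of 8 dendritic and Langerhans cell markers 3 were called higher and none lower (mean 6.30 to 6.49 against 6.00 to 6.17, summed signal 769.0 to 936.4 against 725.1 to 863.8). In this list 4 markers had a higher mean and 4 a lower one, Cd207 (-0.36) and Epcam (-0.35) among the latter. Of the 3 called, Ccr7 also stands in the target list. Plasmacytoid dendritic cells are the cells in which the CLEC4C promoter is active, and limma called none of their 6 markers, with 2 at an unadjusted p under 0.05, 1 higher (Bst2) and 1 lower (Tcf4) (mean 7.55 to 7.59 against 7.57 to 7.68, summed signal 3628 to 3853 against 3909 to 4022). That summed signal rested mostly on Ly6d, at 11.14 to 11.38 against 11.30 to 11.50, and is no measure of the number of these cells. Siglech was at 5.42, 5.52 and 5.47 against 5.68, 5.41 and 5.83, and Ccr9 and Spib did not pass either. Limma likewise called none of 5 B cell markers (1 at an unadjusted p under 0.05, mean 4.90 to 5.05 against 4.84 to 4.90), none of 6 NK cell markers (1, mean 5.42 to 5.88 against 5.15 to 5.69) and none of 5 mast cell markers (0, mean 7.16 to 7.34 against 7.13 to 7.43). None of 7 keratinocyte markers was called by limma (mean 11.15 to 11.50 against 11.36 to 11.45). At an unadjusted p under 0.05 there were 4, of which 3 were lower (Krt10, Dsc3 and Trp63) and 1 higher (Dsg3). Limma called 1 of 5 endothelial and 1 of 6 fibroblast markers higher, and 2 of 5 ear cartilage markers and 1 of 5 skeletal muscle markers fell. Most fibroblast markers went the other way, with a lower mean in 4 of the 6 and a median difference of -0.23. At an unadjusted p under 0.05 in limma, 3 fibroblast markers were lower and 1 higher, and 1 endothelial marker lay in each direction. All 5 cartilage and all 5 muscle markers had a lower mean, with median differences of -0.59 and -0.57. At the same unadjusted threshold 3 cartilage and 4 muscle markers were lower and none higher. The granule genes Mpo, Elane and Camp, which neutrophils transcribe as they form in bone marrow, were at 4.78 to 5.48 with none called. Ngp, another granule gene of the list, was at 4.65, 6.27 and 5.78 against 4.32, 4.34 and 4.43, a difference of 1.20 that did not pass (limma adjusted p = 0.0689). The part of these cells in the members' differences was not tested.

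**Figure D4:**
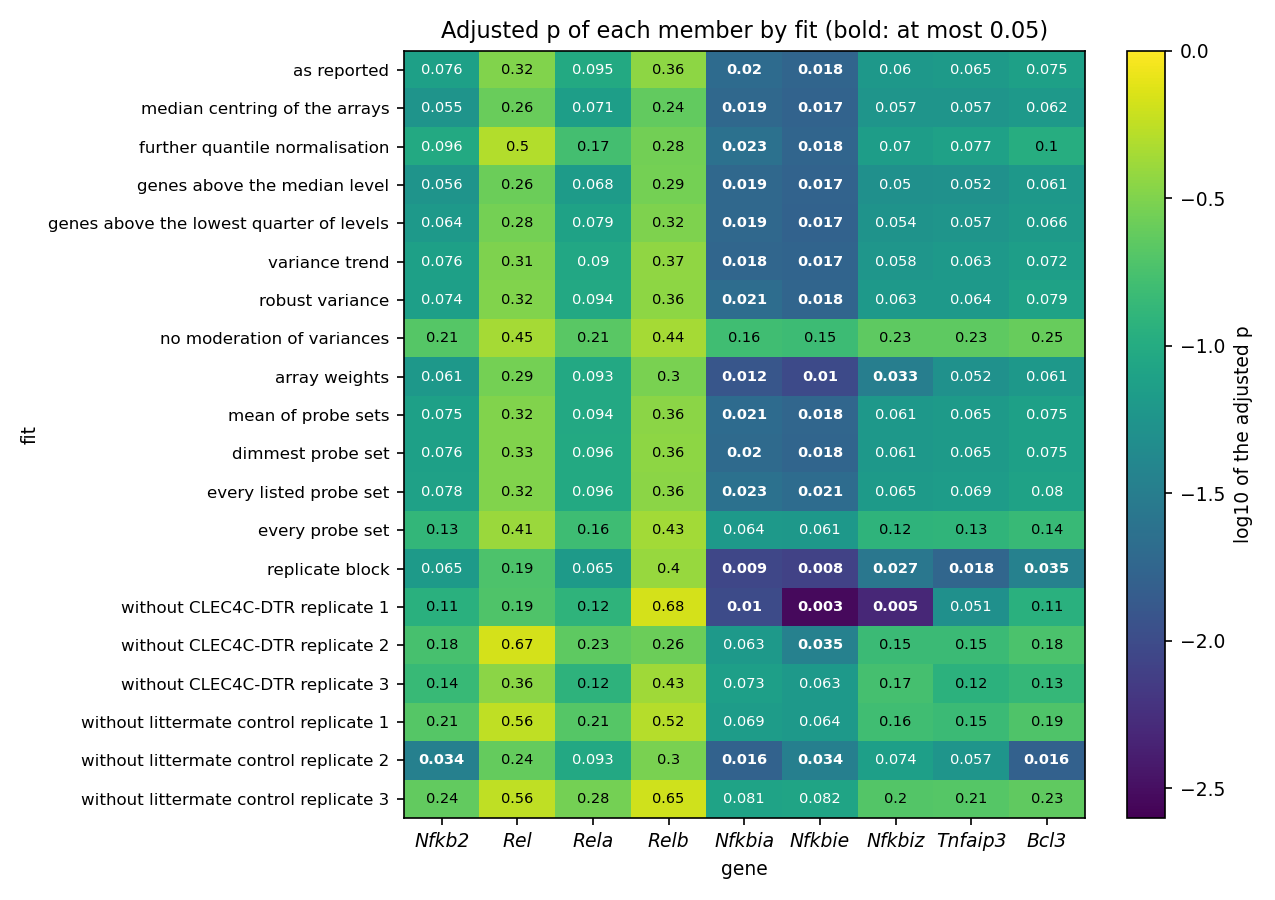
Adjusted p of each measured member (columns) in the fit as reported and under each alternative (rows), with values at most 0.05 in bold and colour giving the log10 of the adjusted p. Nfkbia and Nfkbie are bold in most rows but not with several single arrays left out, without moderation of variances or over every probe set, while Rel, Rela and Relb are bold in none.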

How the data were processed

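The deposited values are log2 intensities that the authors processed by RMA, as the series' design text says; that they are log2 was read from their range (1.60 to 13.9). No source used here names the RMA software. RMA compresses differences of dim genes. Of 35556 probe sets, 21789 are listed with 1 gene symbol, 1621 with several and 12146 with none; symbols were updated through Entrez identifiers (21698 found in RefSeq GRCm38.p6), and the brightest per gene gave 19938 genes, with no filter on level. The groups of 3 mice were compared with limma 3.58.1 in R 4.3.3 (two-sided, Benjamini-Hochberg over all genes), which gave every adjusted p, SE and interval; the step was tested on simulated data. All members were named, and of each list the called genes and some or all of the 6 with the smallest p. Ikbkb, Ikbkg, Map3k14, Lta, Tlr2, Icam1, Vcam1, Ccl2, Cxcl1, Il6, Ccl5, Irf1, Lyz2 and Ngp were picked after their values were seen. Members and lists were chosen with earlier results of these data known. Alternatives were 2 scalings, 2 level filters, other variance models, array weights, other probe set rules, a replicate block and each array left out.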

Additional observations from a re-analysis of the deposited data

How the results depend on the processing

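All 9 members kept a higher mean in CLEC4C-DTR skin under each of the 19 alternatives, but many of these could not have turned the direction. Level filters, variance models and the replicate block leave a member's difference unchanged. Probe set rules do so too, as each member has 1 probe set. Where the groups did not overlap, leaving out 1 array cannot turn the direction either. Only 3 arrays per group limit every call. The number of genes called, 1858, was 0 without moderation of variances (4387 at an unadjusted p under 0.05), 95 over every probe set and 67 to 2617 with 1 array left out. The number of members called, 2, was 0 without moderation (4 at an unadjusted p under 0.05) and 0 over every probe set (7 at an unadjusted p under 0.05), 3 with array weights and 0 to 4 with 1 array left out. Groups were apart for 4 instead of 7 members after a further quantile normalisation. With the replicate block the members called were 5, adding Nfkbiz (adjusted p = 0.0267), Tnfaip3 (0.0181) and Bcl3 (0.0345); deviations of same-numbered mice correlated at -0.06, 0.22 and 0.10, so the numbers may only be names. With array weights Nfkbiz also passed (0.0329). Over the other alternatives limma's adjusted p was 0.00906 to 0.161 for Nfkbia and 0.00823 to 0.151 for Nfkbie. Without moderation limma called 0 genes in each of the 6 lists. Over every probe set the other inhibitors, kinases, ligands and receptors gave 0, targets 1 and Nfkbiz-dependent genes 4. The other inhibitors gave 1 after a further quantile normalisation, 1 over every listed probe set, 4 with array weights and 4 with the replicate block, and the ligands 7 with array weights. With 1 array left out the calls were 0 to 3 for other inhibitors, 0 to 7 for kinases and adaptors, 0 to 8 for ligands, 0 to 11 for receptors, 1 to 17 for targets and 4 to 8 for Nfkbiz-dependent genes. The causes were not tested.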

Other observations

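For 3 members the genes with the most similar profile over the 6 arrays were found, by the root mean square distance between profiles that had each been centred on their own mean, among 19929 genes outside the members. Nearest to Nfkbiz were the RNA helicase gene Dhx38 (distance 0.03 on the log2 scale, difference between groups 0.70), the ubiquitin ligase gene Rnf125 (0.03, difference 0.67) and Atp8b4 (0.04, difference 0.64). Nearest to Tnfaip3 were Gm5478 (0.06), Birc3 (0.06), the NF-kB target and ubiquitin ligase gene described above, and H2-Q5 (0.06). Nearest to Relb were Thy1 (0.02), a surface marker of T cells, Snrpa (0.03) and Fgd2 (0.04), none of which was called. How near the closest profile of other genes lies was not measured, and these are given as a description.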
